A study of Mus musculus with 10 samples.

Results

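The cAMP response element (CRE) is a palindrome of 2 copies of the half-site TGAC that meet at a central CpG. The 820 8-mers described here hold this half-site on either strand but no CpG anywhere. They are the 8-mers of the series that contain TGAC, contain no CpG and share fewer than 6 consecutive bases with TGACTCA, the AP-1 site of FOS and JUN proteins. There are 32896 8-mers in all, each merged with its reverse complement. Of these, 20349 hold no CpG and 858 of those hold the half-site. The AP-1 condition removed 38 of the 858. All 820 were measured on every array and entered every test, so no filter on low values removed any.

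The readout comes from protein binding microarrays, on which a tagged DNA-binding domain binds to short duplex probes of a design in which every 8-mer recurs in many sequence contexts. The domains are GST-tagged bZIP domains of mouse CREB1 and CEBPB, made by transcription and translation in vitro. The 10 arrays form 5 groups of 2. These are CEBPB(V285A) on methylated DNA, CEBPB(V285A) on unmethylated DNA, CREB1(A297V) on methylated DNA, CREB1(A297V) on unmethylated DNA, and unmutated CREB1 on unmethylated DNA. Methylated arrays had been incubated for 3 h with the enzyme M.SssI, which adds a methyl group to cytosine in CpG. CREB1 on methylated DNA and unmutated CEBPB were not analysed here. The domains were studied alone, without the rest of the protein, partner proteins or chromatin. The labels do not say whether the 2 arrays of a group used separate protein preparations, so each p-value reflects only how much these arrays vary, and that variation may be technical.

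Proteins of the bZIP family bind DNA as dimers, and the basic region of each monomer contacts a half-site in the major groove. CREB1 is a transcription factor that responds to cAMP signalling through CREs, and methylation of the central CpG is known to weaken its binding to the CRE. CEBPB belongs to the C/EBP family, whose own half-site is TTGC. The exchanged residue is alanine in CREB1 and valine in CEBPB, and each mutant carries the residue of the other protein. When TGAC is followed by A, the opposite strand reads TG in place of CG, which is what deamination of a methylated cytosine leaves behind.

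Each 8-mer below is read 5′ to 3′ on the strand of the half-site, and capitals mark the half-site. In the 8-mers matched to a member, capitals mark the half-site and the G that follows it. The first set shows members that differ in the base after the half-site, each beside the 8-mer with G at that place, since most of the results turn on this base.
CRE octamer with G: TGACGtca
A in place of G: TGACatca
C in place of G: TGACctca
T in place of G: TGACttca
octamer ending in taa, with G: TGACGtaa
A in place of G: TGACataa
C in place of G: TGACctaa
T in place of G: TGACttaa
The second set holds members on which the proteins or the DNA treatments differed, and the pair of members with 2 copies of TGAC, because their flanks are compared below.
A before, aca after: aTGACaca
half-site then acat: TGACacat
half-site then acac: TGACacac
half-site then acaa: TGACacaa
half-site last, gtga before: gtgaTGAC
half-site last, gtaa before: gtaaTGAC
A on both sides: ctaTGACa
T before, A after: tgtTGACa
2 half-sites, inverted: gtcaTGAC
2 half-sites, in tandem: TGACtgac

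By the base after the half-site there were 232 members with A, 186 with C and 193 with T, and 207 ended with the half-site. The other 2 held a second TGAC. Each member was scored from 18 to 40 probes, with a median of 34. The score is a Z-score: the median log2 probe signal of the 8-mer, relative to the median of all 8-mers of that array and divided by their scaled median absolute deviation, so 0 is the level of a typical 8-mer. Neighbouring members lie on the same probes and are not independent of each other.

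The median member scored above a typical 8-mer with all 3 proteins, and least so with CREB1(A297V) on unmethylated DNA. The members' median Z-score was 0.971 and 1.10 on the 2 methylated CEBPB(V285A) arrays and 1.19 and 1.08 on the unmethylated ones. It was 0.753 and 0.703 on the methylated CREB1(A297V) arrays and 0.176 and 0.427 on the unmethylated ones. The CREB1 arrays gave 0.844 and 1.25. The lowest pair was thus that of CREB1(A297V) on unmethylated DNA, and it did not overlap any other group. On those 2 arrays the 8-mers with neither CpG nor half-site had medians of 0.122 and 0.0571, so the first array showed little difference.

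Few members were bound strongly. A mean Z-score of at least 3 was reached by 101 of the 820 (12.3%) for CEBPB(V285A) on methylated DNA and by 125 (15.2%) on unmethylated DNA. For CREB1(A297V) the counts were 67 (8.17%) on methylated and 23 (2.80%) on unmethylated DNA, and for CREB1 104 (12.7%). Among the 19491 8-mers with neither CpG nor half-site the shares were 1.95% and 1.11% for CEBPB(V285A) on methylated and unmethylated DNA. They were 2.48% and 1.74% for CREB1(A297V) on methylated and unmethylated DNA and 0.318% for CREB1. The half-site 8-mers thus stood far above the other CpG-free 8-mers for CREB1 and close to them for CREB1(A297V) on unmethylated DNA. Across the members, replicate arrays correlated at 0.977 and 0.973 for CEBPB(V285A) on methylated and unmethylated DNA, at 0.971 and 0.866 for CREB1(A297V) and at 0.943 for CREB1. These correlations run over overlapping 8-mers on the same probe design and describe the arrays only.

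Median spot signal was 345 to 1857 and median signal over background 1.79 to 5.10 on the 10 arrays, and at most 3.89% of spots lay at or below background. Array identifiers recorded with the files put CREB1 and CREB1(A297V) on unmethylated DNA under one identifier, both methylated groups under another and unmethylated CEBPB(V285A) under one of its own, so in 5 of the 7 comparisons identifier and group cannot be told apart. The share of probes at the position they had on the first array was 0% for both methylated CREB1(A297V) arrays and 100% for the others.

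Among the members, A after the half-site went with the highest scores and C with the lowest, for every protein. The 232 members with A had median Z-scores of 1.87 and 1.83 for CEBPB(V285A) on methylated DNA and 2.04 and 1.82 on unmethylated DNA. Their medians were 1.34 and 1.38 for CREB1(A297V) on methylated DNA, 0.735 and 1.08 on unmethylated DNA, and 1.46 and 2.00 for CREB1. Members with T followed, with array medians of 0.0652 to 0.750, and members with C had array medians of -0.349 to 0.394. Within each of the 10 arrays the order was A, then T, then C. Members that ended with the half-site lay between those with A and those with T on every array, at 0.386 to 1.75. In 148 sequence contexts the A, C and T versions were all members. The A version had the highest mean score in 126 of them for CEBPB(V285A) on methylated DNA and 130 on unmethylated DNA, in 134 and 126 for CREB1(A297V), and in 133 for CREB1. The C version was highest in at most 5.

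The CRE octamer shows this order in single 8-mers. TGACatca scored 10.1 and 10.4 with CEBPB(V285A) on methylated DNA and 13.3 and 10.7 on unmethylated DNA. With CREB1(A297V) it scored 8.63 and 9.36 on methylated DNA and 3.47 and 5.58 on unmethylated DNA, and with CREB1 7.62 and 10.7. It was the member with the highest mean for CREB1 and for CREB1(A297V) on methylated DNA. TGACctca scored 2.83 and 2.49, then 2.67 and 2.35, with CEBPB(V285A) on methylated and unmethylated DNA. The same 8-mer scored 2.16 and 2.51, then 0.196 and 1.36, with CREB1(A297V) on methylated and unmethylated DNA, and 0.799 and 1.85 with CREB1. TGACttca lay at 0.480 to 2.79 over the 10 arrays. The A version lay above both others on all 10 arrays.

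In the octamer that ends in taa, A was again the highest for CEBPB(V285A) and CREB1, while C came close to it for CREB1(A297V). TGACataa scored 15.1 and 14.3 with CEBPB(V285A) on methylated DNA and 13.3 and 13.4 on unmethylated DNA. With CREB1(A297V) it scored 7.04 and 7.80 on methylated DNA and 4.80 and 5.95 on unmethylated DNA, and with CREB1 4.78 and 5.78. It was the highest member for CEBPB(V285A) on both kinds of DNA, ranking 9 and 41 among all 8-mers on methylated and unmethylated DNA, and also the highest for CREB1(A297V) on unmethylated DNA. TGACctaa scored 5.38 and 8.01 with CREB1(A297V) on methylated DNA and 3.59 and 4.64 on unmethylated DNA. With CEBPB(V285A) the C version scored 4.93 and 4.30 on methylated DNA and 3.47 and 3.73 on unmethylated DNA, and with CREB1 2.08 and 1.69. On the methylated CREB1(A297V) arrays the A and C versions overlapped. TGACttaa lay at 2.17 to 4.72 on the 10 arrays.

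The base after the A also mattered. Members with TGACAT had the highest array medians for CEBPB(V285A), 2.90 and 2.88 on methylated DNA and 2.70 and 2.54 on unmethylated DNA. For CREB1 the medians were close for AA, AC and AT after the half-site, between 1.60 and 2.46. Members with TGACCC had the lowest median on every array, from -1.09 to 0.000819. In the panel of fixed 8-mers, TGACatgg scored 3.64 and 3.81, then 4.49 and 4.77, with CEBPB(V285A) on methylated and unmethylated DNA and 4.03 and 4.91 with CREB1. TGACctgg lay between -0.771 and 0.873 on all 10 arrays, near the level of a typical 8-mer. TGACtttt likewise stayed between -0.0804 and 0.569.

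The base before the half-site ordered the members as well. Members with A before it had the highest median on every array, 2.31 and 2.49 for CEBPB(V285A) on methylated DNA, 2.99 and 2.72 on unmethylated DNA, 1.65 and 1.73 for CREB1(A297V) on methylated DNA, 0.973 and 1.58 on unmethylated DNA, and 2.13 and 2.95 for CREB1. G before the half-site came next, with medians of 0.331 to 2.06, and C and T were lowest, with medians of -0.310 to 0.570. Of the 46 members with A on both sides, 28 and 38 had a mean Z-score of at least 3 for CEBPB(V285A) on methylated and unmethylated DNA. For CREB1(A297V) the counts were 26 and 6 of these 46, and for CREB1 31. With T before and A after, 0 and 1 of 46 reached that level for CEBPB(V285A) on methylated and unmethylated DNA, 1 and 0 for CREB1(A297V), and 0 for CREB1. The groups stood close together on these 46 members, with array medians of 0.706 to 0.985.

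The order of the following bases also appeared in single probes. Probes with exactly 1 half-site were set against the 31244 probes with none. With A after the half-site the median log2 signal of 1939 probes was higher by 0.49 and 0.51 for CEBPB(V285A) on methylated DNA and by 0.43 and 0.38 on unmethylated DNA. For CREB1(A297V) the excess with A was 0.29 on both methylated arrays and 0.12 and 0.14 on the unmethylated ones, and for CREB1 it was 0.28 and 0.33. With T the excess was 0.018 to 0.18, and with C it was -0.046 to 0.068. For comparison, the CpG-containing TGACG gave 1.04 and 1.07, then 1.26 and 1.13, for CEBPB(V285A) on methylated and unmethylated DNA. TGACG gave 0.46 and 0.39, then 0.13 and 0.20, for CREB1(A297V) on methylated and unmethylated DNA, and 0.81 and 0.96 for CREB1. On the unmethylated CREB1(A297V) arrays the excess with A and the excess with G were of the same size on the first array. In the 207 members that end with the half-site, G is the next base on the probe in 23.8% of member and probe pairs, so CpG-containing half-sites contribute to their scores.

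With G in place of the following base, nearly every 8-mer scored higher than the member for CEBPB(V285A) and CREB1. Over the 611 members with a following base and 1 half-site, the 8-mer with G minus the member had a median of 3.44 and 3.14 for CEBPB(V285A) on methylated DNA and 5.50 and 4.88 on unmethylated DNA. For CREB1(A297V) it was 1.89 and 1.64 on methylated DNA and 0.910 and 1.64 on unmethylated DNA, and for CREB1 4.23 and 5.80. The member was the higher on both arrays in 21 and 6 of 611 for CEBPB(V285A) on methylated and unmethylated DNA, in 61 and 75 for CREB1(A297V), and in 5 for CREB1. With A in place of G, 42 of 232 members (18.1%) exceeded the G version on both methylated CREB1(A297V) arrays, 52 (22.4%) did so on both unmethylated ones, and 5 (2.16%) did so on both CREB1 arrays. Whether these shares differ was not tested. Members scored only from probes without TGACG gave nearly the same differences, but the authors' deposited score matrix gave larger ones for some: for CEBPB(V285A) on unmethylated DNA the 8-mer with G minus the A version had a median of 9.09 there and 4.01 here, averaged over the 2 arrays.

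For the CRE octamer the 8-mer with G remained far above its versions without CpG. TGACGtca scored 19.1 and 18.6 with CEBPB(V285A) on methylated DNA and 23.3 and 23.1 on unmethylated DNA. With CREB1(A297V) it scored 21.2 and 21.9 on methylated DNA and 12.7 and 16.4 on unmethylated DNA, and with CREB1 29.1 and 32.5. TGACatca, the closest member, stood at 10.7 or below on 9 of these 10 arrays, and at 13.3 on the first unmethylated CEBPB(V285A) array. As a multiple of the array median, the linear signal of TGACataa was 13.9-fold and 6.55-fold for CEBPB(V285A) on methylated and unmethylated DNA, 2.77-fold and 1.60-fold for CREB1(A297V) and 1.77-fold for CREB1.

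The pair of members with 2 half-sites behaved differently from each other. Their flanks differ too, with A before the half-site in gtcaTGAC and T after the first one in TGACtgac. Arrangement and flank cannot be told apart in this pair. The inverted gtcaTGAC scored 6.44 and 6.66, then 6.91 and 5.97, with CEBPB(V285A) on methylated and unmethylated DNA. With CREB1(A297V) it scored 5.53 and 5.41 on methylated DNA and 2.31 and 3.93 on unmethylated DNA, and with CREB1 7.64 and 6.94. The inverted member is its own reverse complement and was scored from 18 probes, the fewest of any member. It ends with the half-site on either strand, so a G that follows on the probe completes TGACG. The tandem TGACtgac stayed between -0.693 and 1.43 on all arrays. Of the 3 members that also hold the PAR half-site TTAC, gtaaTGAC stood highest. It scored 6.21 and 5.05, then 7.53 and 7.36, with CEBPB(V285A) on methylated and unmethylated DNA, 7.54 and 7.86, then 4.07 and 4.66, with CREB1(A297V), and 4.28 and 5.44 with CREB1. The other two scored 0.119 to 3.29. The 3 members with the C/EBP half-site TTGC scored -0.478 to 3.63.

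CEBPB(V285A) and CREB1 on unmethylated DNA were close on most of these 8-mers, and the differences that passed the test were mainly higher for CEBPB(V285A). Differences between groups were tested with limma over all 32896 8-mers at an adjusted p below 0.05, and the 7 comparisons share arrays. Of the 820 members, 40 (4.88%) were higher and 8 (0.976%) lower for CEBPB(V285A), against 3.67% and 2.53% of all 8-mers. The median difference over the members was 0.132. This small shift depended on the processing: relative to all 8-mers it was 0.126 in the main scores, -0.029 after normexp background correction and -0.042 without the first CREB1 array. Calls over all 8-mers went from 2040 to 4393 on undivided log2 scores, 721 on the authors' matrix and 2136 after normexp. The split among the members moved as well, to 187 higher and 12 lower, 25 and 1, and 16 and 36 in that order. Leaving out the first or the second unmethylated CEBPB(V285A) array left 3 and 11 calls, and leaving out the first CREB1 array left 14.

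The highest differences called for CEBPB(V285A) over CREB1 were those of TGACataa, gtgaTGAC, TGACacaa, taTGACat and aTGACata. TGACataa, with the arrays given above, was higher by 8.08 ± 1.30 (SE, adjusted p = 0.00152), and both CEBPB(V285A) arrays lay above both CREB1 arrays by more than 7 units. Its difference was 33.7 on the authors' matrix, where it was not called. TGACacaa scored 4.84 and 5.00 with CEBPB(V285A) against 2.01 and 1.64 with CREB1, a difference of 3.09 ± 0.463 (adjusted p = 0.000836) that was not called after normexp. Its G version TGACGcaa, which ends like a C/EBP site, scored 17.3 and 16.8 with CEBPB(V285A) against 9.83 and 14.8 with CREB1. The gtgaTGAC difference of 3.82 lost its call without the first array of either group, with probes holding TGACG left out, and after normexp, where it was -0.276. The calls of taTGACat (2.90) and aTGACata (2.87) were lost without the first CREB1 array or either CEBPB(V285A) array.

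The 5 lowest called differences of CEBPB(V285A) minus CREB1 were small and lay among weakly bound members. They were -1.64 for gcttTGAC, -1.47 for TGACcaca, -1.39 for aaggTGAC, -1.31 for ccatTGAC and -1.23 for gtTGACaa. The difference of gcttTGAC, at 0.195 and 0.151 with CEBPB(V285A) against 1.65 and 1.97 with CREB1, stayed called without any single array (adjusted p = 0.00173 with all). The other 4 lost their call without either CEBPB(V285A) array, and aaggTGAC, ccatTGAC and gtTGACaa also without 1 CREB1 array.

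With the A297V substitution CREB1 scored lower on many of these 8-mers on unmethylated DNA. Of the 820 members, 289 (35.2%) were lower and 7 (0.854%) higher for CREB1(A297V) than for CREB1, against 10.8% and 8.13% of all 8-mers. The median difference was -0.665 over the members and 0.0221 over all 8-mers. Among the 19491 CpG-free 8-mers without the half-site, 2.88% were lower and 11.9% higher. Of the 232 distinct 8-mers with G after the half-site, 226 (97.4%) were lower. The counts differed by flank within the members, and 30 of 46 with A on both sides were lower. Before the half-site, A went with 99 of 179 lower and G with 83 of 142. With C there, 49 of 178 were lower, and with T 11 of 179. The CREB1 scores also differed by this base, with array medians of 2.13 and 2.95 for A and 1.3 and 2.0 for G. They were 0.059 and 0.30 for C and 0.27 and 0.20 for T. Whether the loss depended on the flank beyond this CREB1 level was not tested. The comparison of CREB1(A297V) with CREB1 lies within 1 array identifier. A fit of those 4 arrays alone called 2518 of all 8-mers, against 6226 in the main fit, with 125 members lower and 2 higher. Without the second CREB1 array 82 were lower and 2 higher.

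The member with the largest called loss for CREB1(A297V) was ctaTGACa. It scored 0.831 and 1.99 with CREB1(A297V) against 5.86 and 7.29 with CREB1, a difference of -5.16 ± 0.608 (SE, adjusted p = 2.54e-05). The inverted gtcaTGAC differed by -4.17 ± 0.748 (adjusted p = 0.000782) and cctaTGAC, at 1.75 and 2.74 against 5.26 and 7.50, by -4.14 ± 0.676 (adjusted p = 0.000363). These 3 members kept their call without any single array. TGACatca differed by -4.65 ± 1.43 (adjusted p = 0.0286), a call lost without the second CREB1 array, the first unmethylated CREB1(A297V) array or the first methylated CEBPB(V285A) array and in the 4-array fit. TGACatca was also not called on the authors' matrix or after quantile normalization. The call of aTGACatg (-3.75) was lost without the second CREB1 array or the first CREB1(A297V) array, and on the authors' matrix.

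Some members did not follow this loss. TGACataa scored almost the same with both proteins (difference 0.0972 ± 1.30, adjusted p = 0.97), and its SE leaves room for a change of 2 units or more either way. TGACctaa, at 3.59 and 4.64 with CREB1(A297V) against 2.08 and 1.69 with CREB1, was higher by 2.23 ± 0.689 (adjusted p = 0.0293). Its call was lost without the second CREB1 array, either unmethylated CEBPB(V285A) array or the second CREB1(A297V) array. It was also lost with TGACG probes left out, on undivided log2 scores and on the authors' matrix. The other 4 of the 5 highest called differences were tTGACtgt (1.31), agtTGACt (0.930), ctTGACtt (0.812) and atTGACta (0.771), all with T before the half-site and T after it. They scored between -1.12 and 1.20 on these 4 arrays. Only tTGACtgt kept its call without any single array. The calls of agtTGACt, ctTGACtt and atTGACta were lost in the 4-array fit and without 1, 2 and 3 of the compared arrays.

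Between the mutants on unmethylated DNA, CEBPB(V285A) was the higher on a large share of the members. Of the 820, 373 (45.5%) were higher and 12 (1.46%) lower for CEBPB(V285A) than for CREB1(A297V), against 14.1% and 11.5% of all 8-mers. The median difference was 0.762. The largest called differences were those of TGACataa (7.99 ± 1.30, SE, adjusted p = 0.000237), TGACatca (7.51 ± 1.43, adjusted p = 0.000876) and gtgaTGAC (7.07 ± 0.850, adjusted p = 1.61e-05). The 8-mer gtgaTGAC scored 10.9 and 9.56 with CEBPB(V285A) against 2.41 and 3.92 with CREB1(A297V). Next came aTGACatg (5.03) and aTGACatc (4.94), and all 5 kept their call without any single array. TGACataa was not called on the authors' matrix.

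The 12 members lower for CEBPB(V285A) than for CREB1(A297V) had T before the half-site in 11 cases. T stood there in 179 of the 820 members, and 25 of these were higher. The lowest was tgtTGACa, at 0.579 and 0.213 with CEBPB(V285A) against 2.21 and 2.35 with CREB1(A297V), a difference of -1.88 ± 0.351 (SE, adjusted p = 0.000748). It was followed by atgtTGAC (-1.65), ctTGACtt (-1.24), gtTGACac (-1.09) and cTGACtta (-1.07). The first 3 kept their call without any single array. The call of gtTGACac was lost without either CEBPB(V285A) array or the second CREB1(A297V) array, and that of cTGACtta without either CEBPB(V285A) array or the first CREB1(A297V) array. On undivided log2 scores both were also not called.

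The mutants were also compared on methylated DNA, which was measured on separate arrays. There 107 members (13.0%) were higher and 14 (1.71%) lower for CEBPB(V285A), against 6.75% and 5.49% of all 8-mers, with a median difference of 0.331. Of the members higher on unmethylated DNA, 88 were also higher here, which is 23.6% of those 373 and 82.2% of these 107. The overlap among all 8-mers was not computed, so these shares describe the members only. Of the lower ones 5 were shared, 41.7% of 12 and 35.7% of 14. The count fell to 29 calls without the second methylated CREB1(A297V) array and to 47 without the first, and to 34 and 40 without the first and second methylated CEBPB(V285A) array. Both groups share an array identifier. A fit of those 4 arrays alone called 238 members higher and 39 lower, and 8787 of all 8-mers against 4027 in the main fit. Probe positions differed, however: 0% matched the first array for CREB1(A297V) and 100% for CEBPB(V285A). Protein and probe position thus cannot be told apart here.

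The members highest for CEBPB(V285A) over CREB1(A297V) on methylated DNA were TGACataa, atcaTGAC, caagTGAC, TGACacaa and attaTGAC. TGACataa was higher by 7.24 ± 1.30 (SE, adjusted p = 0.00117). TGACacaa scored 6.59 and 6.26 with CEBPB(V285A) against 3.10 and 3.47 with CREB1(A297V), a difference of 3.14 ± 0.463 (adjusted p = 0.000183). The differences of atcaTGAC (3.22), caagTGAC (3.18) and attaTGAC (3.05) were of like size. All 5 stayed called without any single array, but caagTGAC was 0.450 apart and not called with TGACG probes left out.

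Of the 14 members lower for CEBPB(V285A) than for CREB1(A297V) on methylated DNA, 8 had AC after the half-site. There were 38 members with AC, of which 2 were higher, and their medians were 1.71 and 1.86 for CEBPB(V285A) against 1.87 and 1.84 for CREB1(A297V), so the group as a whole stood at about the same level. TGACacat scored 2.59 and 3.12 with CEBPB(V285A) against 6.95 and 8.85 with CREB1(A297V), a difference of -5.05 ± 0.659 (SE, adjusted p = 4.92e-05). TGACacac scored 3.39 and 3.57 with CEBPB(V285A) against 6.73 and 7.01 with CREB1(A297V), a difference of -3.39 ± 0.613 (adjusted p = 0.00124). Neither pair of groups overlapped, and both calls held without any single array. The A that ends TGACacaa in place of the T of TGACacat thus went with the opposite direction. tgtTGACa differed by -2.75 ± 0.351 (adjusted p = 4.13e-05), the same direction as on unmethylated DNA. The calls of gTGACaca (-2.84) and gtTGACac (-1.52) were lost without either methylated CEBPB(V285A) array or the second methylated CREB1(A297V) array.

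The members hold no CpG, but M.SssI can modify CpGs elsewhere on their probes. It can also modify a member's own end where the next base on the probe completes a CpG, as in the 23.8% of pairs in which G follows a member that ends with the half-site, such as gtgaTGAC or cctaTGAC. For CEBPB(V285A), 23 members (2.80%) were higher and 28 (3.41%) lower on methylated than on unmethylated DNA. These shares lay near the 3.84% and 3.73% of all 8-mers, which include 8-mers with CpG. Among the 19491 CpG-free 8-mers without the half-site the tilt was the other way, with 5.1% higher and 1.46% lower. The median difference was -0.0953 over the members and 0.106 over those 19491 8-mers. Relative to all 8-mers the members' median was -0.102, but 0.037 on undivided log2 scores. Calls over all 8-mers went from 2490 to 10025 on undivided log2 scores and to 1635 after normexp. The members' split also moved, to 169 higher and 64 lower and to 14 and 10 in that order. Without the first methylated or the first unmethylated CEBPB(V285A) array, limma called 0 members, with 95 and 96 at an unadjusted p below 0.05. Without the second one of each, 6 and 13 were called.

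The lowest called difference for CEBPB(V285A) on methylated DNA was that of gtgaTGAC, at 6.43 and 6.21 on methylated against 10.9 and 9.56 on unmethylated DNA (-3.91 ± 0.850, SE, adjusted p = 0.0111). TGACacta scored 1.54 and 2.12 on methylated against 5.42 and 4.51 on unmethylated DNA, a difference of -3.13 ± 0.522 (adjusted p = 0.00269). The arrays did not overlap for either. The others were cctaTGAC (-3.27), ttaaTGAC (-2.29) and gTGACatg (-2.15). The highest were agtgTGAC (1.87), TGACaaaa (1.82), gTGACatc (1.62), aaccTGAC (1.26) and taccTGAC (1.19). All 10 lost their call without the first methylated and without the first unmethylated CEBPB(V285A) array. With TGACG probes left out, gtgaTGAC, cctaTGAC, ttaaTGAC, gTGACatg, agtgTGAC, gTGACatc and aaccTGAC were not called.

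CREB1(A297V) scored higher on many members when the DNA was methylated. Of the 820, 171 (20.9%) were higher and 29 (3.54%) lower on methylated DNA, against 10.4% and 11.1% of all 8-mers, and the median difference was 0.421. After normexp the counts were 75 and 29, and calls over all 8-mers went from 7094 to 6099. Without the first and the second methylated array 66 and 41 members were called, and without the first unmethylated one 107. The higher members were most often those with A after the half-site, 70 of 232, against 39 of 193 with T, 29 of 186 with C and 31 of 207 at the end. With AT after it 22 of 46 were higher, with AC 15 of 38 and with AA 3 of 46. Of the 29 lower members 17 had C after the half-site, and 11 had T before and C after it.

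The member aTGACaca scored 7.27 and 8.98 with CREB1(A297V) on methylated DNA against 2.96 and 4.66 on unmethylated DNA, a difference of 4.31 ± 0.816 (SE, adjusted p = 0.00142). TGACacat scored 6.95 and 8.85 on methylated against 3.90 and 5.01 on unmethylated DNA (3.45 ± 0.659, adjusted p = 0.00154). The 8-mer caTGACat scored 4.61 and 5.28 on methylated against 1.06 and 2.71 on unmethylated DNA (3.06 ± 0.614, adjusted p = 0.00215). In these 3 the arrays of the groups did not overlap, and the calls held without any single array, as did that of gtaaTGAC (3.34). Of the 4, only caTGACat was also called after normexp. TGACatca was higher by 4.47 (adjusted p = 0.0313), a call lost without either methylated CREB1(A297V) array, the first unmethylated one or either methylated CEBPB(V285A) array, and with TGACG probes left out. It was also not called on the authors' matrix, after normexp, after quantile normalization or without the local median.

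The 5 lowest for CREB1(A297V) on methylated DNA were TGACttgc (-1.54), ctTGACcc (-1.50), tTGACccc (-1.47), aaaaTGAC (-1.39) and TGACaatg (-1.39). The first 3 scored at or below -0.344 on both methylated arrays, and ctTGACcc scored -2.01 on each, against -0.556 and -0.462 on unmethylated DNA (adjusted p = 0.000178). They kept their call without any single array. The calls of aaaaTGAC and TGACaatg were lost without either methylated array, and that of TGACaatg also without the second unmethylated one.

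The excess of CREB1(A297V) signal with A after the half-site was also set out by the number of CpGs on the probe. CpGs were counted in the 35-base variable region only, and the rest of the probe was not searched. The excess was higher on methylated DNA both with no CpG counted and with 4 or more. On 282 probes with 1 half-site followed by A and no CpG, the median log2 signal exceeded that of probes with neither by 0.28 and 0.33 on methylated DNA and by 0.11 on both unmethylated CREB1(A297V) arrays. On 148 such probes with 4 or more CpGs the excess over probes with as many CpGs was 0.26 and 0.22 on methylated DNA against 0.10 and 0.13 on unmethylated DNA. For CEBPB(V285A) the excess without CpG was 0.43 and 0.38 on methylated against 0.31 and 0.28 on unmethylated DNA. With 4 or more CpGs it was 0.51 and 0.59 on methylated against 0.46 and 0.43 on unmethylated DNA. These are levels with no test between them. Array identifier, probe positions and methylation cannot be told apart in this comparison. Signal over background also differed, at 5.09 and 5.03 on the methylated CREB1(A297V) arrays against 2.76 and 1.79 on the unmethylated ones. Its part in these excesses, which are not background-corrected, was not tested.

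The difference between the 2 methylation responses was tested as well. It was lower for CEBPB(V285A) than for CREB1(A297V) in 32 members (3.90%) and higher in 3 (0.366%), against 1.64% and 1.42% of all 8-mers. The median was -0.449. After normexp 8 were lower and 2 higher, and calls over all 8-mers went from 1009 to 948. Limma called 0 members without the first methylated or the first unmethylated CEBPB(V285A) array or without the second methylated CREB1(A297V) array, with 149, 144 and 150 at an unadjusted p below 0.05, and 1 without the first methylated CREB1(A297V) array. Of the 32 lower members 17 had A after the half-site, 8 of them with AC. For ctaTGACa the score with CEBPB(V285A) was 3.73 and 4.12 on methylated against 6.38 and 5.75 on unmethylated DNA, while with CREB1(A297V) it was 3.80 and 3.88 against 0.831 and 1.99. The scores thus differed in opposite directions on this 8-mer and were about the same on methylated DNA. The call for the difference between its 2 responses was lost on the authors' matrix, after normexp and without the local median. Array identifier and methylation cannot be told apart in either response, nor can probe positions in that of CREB1(A297V).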

How the data were processed

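The authors deposited a spot table per array with, per the file headers, the median signal intensity and median background intensity of each spot, on a linear scale and not background-subtracted. A second deposited file gives the authors' own Z-score per 8-mer and array, a score whose processing steps are not given in the sources used here. From 40330 probes with a 35-base variable region, log2 signal was lowered by the median over 15 by 15 spots. Each 8-mer, merged with its reverse complement, took the median over its probes (at least 8), was centred on the median of all 8-mers and divided by their scaled median absolute deviation. No background correction or quantile normalization was applied. Groups were compared with limma 3.58.1 in R 4.3.3 (lmFit, eBayes with a variance trend) on all 10 arrays with a coefficient per group (5 residual degrees of freedom), two-sided, adjusted by Benjamini-Hochberg over 32896 8-mers and called at an adjusted p below 0.05. The number of arrays limits the precision.

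The 8-mers named are a fixed panel, the 10 members with the highest mean in each group, and per comparison up to 5 called members with the highest and 5 with the lowest difference. Members and lists were chosen with earlier results of these data known. Alternatives were undivided log2 scores, the authors' matrix, normexp with an offset of 50, quantile normalization, dim spots left out, no local median, probes with TGACG left out, no variance trend, the replicate number as a block, the 4 arrays of a shared identifier, and each array left out. Replicate numbers were not used to pair arrays, since the labels attach no preparation or day to them. The fit was tested on simulated scores: a planted difference of 4 was recovered for 98% of 100 8-mers in the comparison of CREB1(A297V) with CREB1.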

Additional observations from a re-analysis of the deposited data

Results flagged for a closer look

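For 8 members the difference between the methylation response of CEBPB(V285A) and that of CREB1(A297V) passed the test of the difference itself and was among the highest or lowest such differences. It was -5.27 for gtgaTGAC, -5.15 for gtaaTGAC, -4.57 for ctaTGACa, -4.53 for aTGACaca and -4.39 for TGACacat, all members that score above 3 on most arrays. It was 1.93 for ctTGACtt, 1.75 for ctTGACcc and 1.23 for cttTGACc, which have T before the half-site and score between -2.01 and 0.959. Adjusted p values of limma ran between 0.0111 and 0.0469. With CREB1(A297V), gtaaTGAC scored 7.54 and 7.86 on methylated against 4.07 and 4.66 on unmethylated DNA, while with CEBPB(V285A) it scored 6.21 and 5.05 on methylated against 7.53 and 7.36 on unmethylated DNA. Each of the 8 calls was lost without at least 4 of the 10 arrays taken singly. With groups of 2 arrays, no single array could be tested as an outlier.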

How the results depend on the processing

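Members called under each alternative are given in the order of the comparisons: CEBPB(V285A) and CREB1(A297V) each against CREB1, the mutants on unmethylated DNA, methylation for each mutant, the mutants on methylated DNA, and the methylation responses. The counts were 48, 296, 385, 51, 200, 121 and 35. Undivided log2 scores gave 199 for the first, 233 and 354 for methylation, 399 for the mutants on methylated DNA and 70 for the responses. The authors' matrix gave 26 for the first and 30 and 91 for methylation. Normexp gave 24 and 104 for methylation and 10 for the responses. Without the local median the counts were 19, 150, 11, 86, 50 and 12 in the same order, leaving out the mutants on unmethylated DNA. Leaving out TGACG probes gave 19 for the responses. The 4 arrays of a shared identifier gave 127 for CREB1(A297V) against CREB1 and 277 for the mutants on methylated DNA. The other planned counts lay within 1.5 times the main one. Leaving out 1 array gave 3 to 79, 84 to 344, 211 to 414, 0 to 81, 41 to 232, 29 to 185 and 0 to 105. Calls over all 8-mers moved as well. They were 2040, 6226, 8409, 2490, 7094, 4027 and 1009 in the main scores. Undivided log2 scores gave 4393 for the first, 10025 and 9980 for methylation, 10066 for the mutants on methylated DNA and 2677 for the responses. Normexp gave 1635 and 6099 for methylation and 948 for the responses. The 4 arrays of a shared identifier gave 2518 and 8787. The cause of these shifts was not tested.

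With the replicate block (no pairing in the labels) the counts were 56, 317, 396, 55, 210, 137 and 47, and all 68 named differences stayed called. Deviations of same-numbered arrays correlated between -0.213 and 0.333. Of the 68 named differences 30 kept their call without any single array and 38 did not, none with a change of sign. The sign changed for atTGACta, CREB1(A297V) minus CREB1, on the authors' matrix (-0.248), and for gtgaTGAC, CEBPB(V285A) minus CREB1, after normexp (-0.276). Half-site members that lie next to G on the probe take part of their signal from TGACG, and with 2 arrays per group a call rests on the spread pooled over 5 groups. Signal over background was lowest, 1.79, on an unmethylated CREB1(A297V) array. On simulated scores a planted difference of 2 was recovered for 63% of 100 8-mers in the comparison of the responses.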

Other observations

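The 195 members that share 5 consecutive bases with the AP-1 site, nearly all with T after the half-site, had array medians of 0.0652 to 0.763, against 0.222 to 1.44 for the other 625. The 38 8-mers left out for 6 or more AP-1 bases had a mean Z-score of at least 3 in 3 and 4 cases for CEBPB(V285A) on methylated and unmethylated DNA, in 4 and 0 for CREB1(A297V) and in 4 for CREB1, with highest means of 2.51 to 4.62. The highest member had a mean of 5.38 to 14.7 in the same groups.

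Scores were higher where the half-site ended the 8-mer, but position and following base cannot be told apart there. Members that end with the half-site leave the next base open. In 207 of them G followed in 23.8% of member and probe pairs, while members with a following base never have G there. Members with 0 to 3 bases before the half-site had array medians of -0.0350 to 1.28, and the 208 with 4 bases before it had 0.391 to 1.78.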
